A study of Mus musculus with 15 samples.

Results

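MiR-132 and miR-212 are sister miRNAs of 1 genomic locus. Assays were chosen by name, as miR-132 or miR-212 of any arm, and 1 of the 584 miRNA assays analysed here was a member, mmu-miR-132. MiR-212 was not analysed here. The levels were measured by quantitative PCR in 15 samples of mouse pancreatic endocrine tumour lines, 5 groups of 3 replicates each. αTC1-6 is a clone of a glucagonoma line and stands for α cells, and βTC1 is an insulinoma line and stands for β cells. Both lines were made from tumours of mice that carry the SV40 T antigen, driven by the glucagon promoter in the first and the insulin promoter in the second. The groups were untreated βTC1 at 24 h, untreated αTC1-6 at 24 h, αTC1-6 treated for 24 h, untreated αTC1-6 at 48 h and αTC1-6 treated for 48 h. Treated cells received a cocktail of IL1b at 50 IU/ml, IFNg at 1000 IU/ml and TNFa at 1000 IU/ml, which are inflammatory cytokines. The study asked which miRNAs separate the α line from the β line and how cytokines alter the miRNAs of the α line. Per the study's methods the 3 samples of a group were independent biological replicates of a line, so p-values measure the spread between samples of 1 line, not between animals.

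MiR-132 and miR-212 are processed from a shared primary transcript. Their locus carries cAMP response elements and is a well-known target of CREB, a transcription factor switched on by cAMP and calcium signals. In neurons the pair responds to activity, in immune cells miR-132 rises after Toll-like receptor stimulation, and in islets it is known to respond to cAMP-raising signals and to change in rodent models of diabetes. A miRNA finds its target mRNAs mainly through its seed, bases 2 to 8.

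The mature sequences, from RefSeq with the coordinates of the mouse build GRCm38.p6, are shown because the miR-132 assay reads the first of them and the pair shares its seed, in capitals.
mmu-miR-132-3p: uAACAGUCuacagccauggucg
mmu-miR-212-3p: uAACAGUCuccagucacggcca
The first lies at chr11:75173723-75173744 and the second at chr11:75173443-75173464, both on the plus strand. The gene Mir212 spans chr11:75173388-75173478, Mir132 spans chr11:75173682-75173747, and 203 bases separate the hairpins. Both lie between the protein-coding genes Hic1 and Ovca2. Of the 1679 mature mouse miRNAs in the table, these 2 alone have this seed. Counted from the 5′ end, they differ at 5 positions outside it, A10C, C14U, U17C, U20C and G22A (the miR-132 base first). The next closest mature miRNA differs from miR-132-3p by 7 edits. Whether the miR-132 assay also reads miR-212 was not tested.

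A threshold cycle (Ct) is the PCR cycle at which the signal crosses a set line, so a lower Ct means more template. MiR-132 had a Ct in all 15 samples, from a single well per sample on card A, the first of a pair of array cards. Of the card A miRNAs with a Ct in a sample, between 5.61 and 13.4% had a lower Ct than miR-132, a place in the order of signals and not of copies, since assays differ in efficiency. In βTC1 its Ct was 19.71, 18.95 and 18.95 in replicates 1, 2 and 3. In untreated αTC1-6 at 24 h it was 19.94, 19.96 and 19.91, and in treated αTC1-6 at 24 h 19.69, 20.78 and 20.95. At 48 h it was 20.79, 19.41 and 20.86 without cytokines and 20.95, 20.97 and 20.96 with them. The untreated 24 h and the treated 48 h αTC1-6 samples were each nearly identical, while replicate 1 in βTC1 and in treated αTC1-6 at 24 h, and replicate 2 in untreated αTC1-6 at 48 h, stood apart from the other two of their group.

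The deposited levels are ΔCt values, the Ct of a miRNA minus that of miR-26a in the same sample. The study's methods name multiple reference genes, and how these relate to the deposited values could not be settled. One cycle is 1 unit on the log2 scale, and a higher ΔCt means less miR-132. The ΔCt of miR-132 in replicates 1, 2 and 3 was 1.32, 0.217 and 1.42 in βTC1, with a mean of 0.986 ± 0.667 (SD, n = 3). In untreated αTC1-6 at 24 h it was 0.954, 2.41 and 2.23, with a mean of 1.86 ± 0.793 (SD, n = 3). In treated αTC1-6 at 24 h it was 0.810, 2.82 and 2.99, with a mean of 2.21 ± 1.21 (SD, n = 3). Up to 24 h, replicate 1 of αTC1-6 thus lay among the βTC1 values, and replicates 2 and 3 lay below them in level. In untreated αTC1-6 at 48 h the ΔCt was 1.81, 2.44 and 2.91, with a mean of 2.39 ± 0.551 (SD, n = 3). In treated αTC1-6 at 48 h it was 2.46, 3.27 and 3.52, with a mean of 3.08 ± 0.551 (SD, n = 3). Relative to miR-26a, replicate 1 had the highest level of miR-132 in all 4 αTC1-6 groups. Relative to the median Ct of the sample, where lower is also more, it did not in untreated αTC1-6 at 48 h. There it was at -5.18 cycles, against -5.54 in replicate 2.

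**Figure D1:**
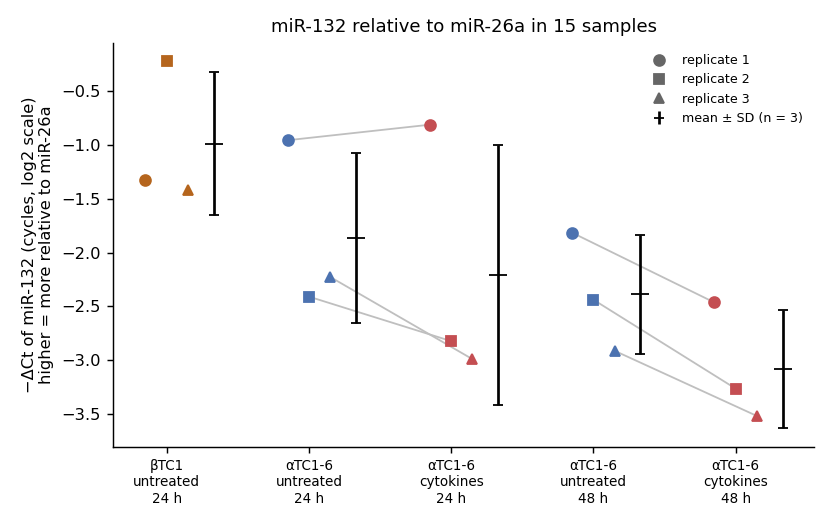
Negative ΔCt of miR-132 relative to miR-26a (y axis, cycles on the log2 scale, higher is more) in the 5 groups, with 1 point per sample, black bars for the mean ± SD of 3 samples and grey lines between treated and untreated αTC1-6 samples of the same replicate number. The group means descend from βTC1 on the left to treated αTC1-6 at 48 h on the right, and neighbouring groups overlap.

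From most to least, the order of the mean levels was βTC1, untreated αTC1-6 at 24 h, treated αTC1-6 at 24 h, untreated αTC1-6 at 48 h and treated αTC1-6 at 48 h. The gaps between neighbours were 0.877, 0.345, 0.181 and 0.694 cycles, and the ranges of every neighbouring pair overlapped. βTC1 came first, untreated αTC1-6 at 24 h second and treated αTC1-6 at 48 h last also when miR-132 was set against the sample median or against U6 and the small nucleolar RNAs, structural RNAs often used to correct for input, or taken as Ct with no reference. With the structural RNAs and with no reference, untreated αTC1-6 at 48 h came before treated αTC1-6 at 24 h.

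The spread of miR-132 within a group differed between the Ct and the ΔCt scale. The Ct of miR-26a was 18.98, 17.55 and 17.69 in the untreated αTC1-6 samples of 24 h, whose miR-132 Ct had an SD of 0.0223 cycles. This was the smallest SD among the 222 card A miRNAs with a Ct in all 3 of these samples, whose median SD was 0.653 cycles. On the ΔCt scale the SD of miR-132 in the same samples was 0.793 cycles, and 79.7% of the 222 had a smaller one. In treated αTC1-6 at 48 h the SD of its Ct was 0.0112 cycles, with 1.05% of 287 miRNAs below it, and 0.551 cycles on the ΔCt scale. In untreated αTC1-6 at 48 h the SD was larger on the Ct scale, 0.816 cycles against 0.551. In βTC1 it was 0.435 cycles on the Ct scale and 0.667 on the ΔCt scale, and in treated αTC1-6 at 24 h 0.687 and 1.21. MiR-26a crossed its line latest in replicate 1 of each αTC1-6 group, at a Ct of 18.98, 18.88, 18.98 and 18.49, in the order of untreated and treated at 24 h and then at 48 h.

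Ct values of the cards were also unevenly spread within a cycle. Of 4164 Ct values of card A miRNAs, 43.7% had a decimal part of 0.9 or more, and 9 of the 15 of miR-132 did. These 9 included all 3 untreated samples of 24 h and all 3 treated samples of 48 h, that is, both of the nearly identical groups. Its part in the small SD was not tested.

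**Figure D2:**
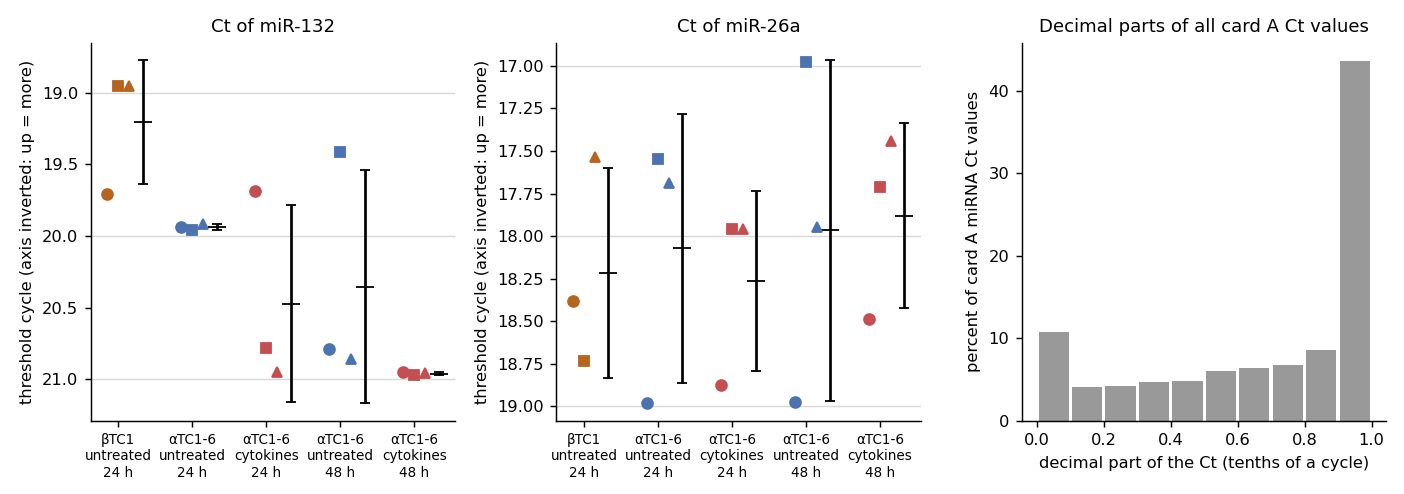
Ct of miR-132 (left) and of miR-26a (middle) in each sample by group, with inverted axes so that up is more, grey lines at whole cycles, circles, squares and triangles for replicates 1, 2 and 3 and black bars for the mean ± SD, beside the percent of all card A miRNA Ct values by decimal part (right). The untreated 24 h and treated 48 h αTC1-6 samples lie together just before a whole cycle for miR-132 and apart for miR-26a, and 43.7% of card A values have a decimal part of 0.9 or more.

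At steady state, miR-132 was 0.88 log2 units lower in αTC1-6 than in βTC1 at 24 h, and this difference did not pass the test. All comparisons across miRNAs used limma, a linear model that shares information on the spread between assays, with Benjamini-Hochberg adjustment within each card and a threshold of 0.05. The standard error was 0.630, the 95% interval ran from -2.44 to 0.69, and the adjusted p was 0.338 (limma). Of 480 miRNAs tested in this comparison, 142 passed, or 29.6%, and miR-132 was not among them. The log2 difference was lower still for 40.8% of those tested, and the median of all was -0.52. An exact permutation test of the 3 against 3 ΔCt values gave a two-sided p of 0.3, where 0.1 is the smallest such a design allows. The untreated αTC1-6 sample of replicate 1 lay within the βTC1 range, and the other two lay beyond it. In bulk RNA, fewer cells with miR-132 and less of it per cell cannot be told apart.

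On the Ct scale, with no reference, the lines did not overlap. Each of the 3 αTC1-6 samples crossed after each of the 3 βTC1 samples, by 0.73 cycles on average, and 28.1% of the miRNAs tested were separated in this way and direction. The fit to those values gave a 95% interval of -1.62 to 0.15 and an adjusted p of 0.148 (limma). Relative to U6 and the small nucleolar RNAs the log2 difference was -1.35 with an interval of -2.98 to 0.28. Relative to the sample median it was -0.59 with an interval of -1.75 to 0.57. The direction was thus shared by the 4 references, which re-express the same Ct values, and each interval held 0. The median of all miRNAs tested was also below 0 under each. It was -0.37 with no reference, -0.81 relative to the structural RNAs and -0.24 relative to the sample median.

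After 24 h of cytokines, miR-132 in αTC1-6 was 0.34 log2 units lower than in untreated cells, with a standard error of 0.775 and a 95% interval from -2.30 to 1.61. The adjusted p was 0.963 (limma). Of 445 miRNAs tested, 1 passed, or 0.225%. Between samples of the same replicate number the log2 difference was 0.14, -0.41 and -0.76, so replicate 1 was higher with cytokines and replicates 2 and 3 lower. The groups overlapped, and the exact permutation p was 0.6. The sign turned without a single sample. The difference was 0.05 without replicate 3 of the treated cells and 0.11 without replicate 1 of the untreated cells.

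After 48 h of cytokines, miR-132 was lower in all 3 pairs of the same replicate number, and the mean difference did not pass the test. The relative quantity, 2 to the power of the negative ΔCt, was 0.284 without and 0.181 with cytokines in replicate 1. It was 0.185 and 0.104 in replicate 2, and 0.133 and 0.0872 in replicate 3. Relative to miR-26a, treated samples therefore had between 0.564 and 0.657 times the miR-132 of the untreated sample of the same replicate number. On the log2 scale the pair differences were -0.65, -0.83 and -0.61, with a mean of -0.69 ± 0.12 (SD, n = 3 pairs). Without regard to the pairs, the groups overlapped, the 95% interval was -1.90 to 0.51, and the adjusted p was 0.762 (limma). The exact permutation p of the unpaired values was 0.2.

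With the replicate number as a block the difference at 48 h was the same, -0.69, with a 95% interval of -1.27 to -0.12. The p before adjustment was 0.0312 and the adjusted p 0.245 (limma). Of 534 miRNAs tested without the block 3 passed, or 0.562%, and with it 0 of 532 did, although 22.7% had an unadjusted p under 0.05.

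Most miRNAs on the cards had lower values after 48 h of cytokines relative to miR-26a. The median log2 difference of the 534 miRNAs was -0.51, 74.7% were below 0 and 46.8% were lower in all 3 pairs, as miR-132 was. Of them 39.5% had a lower difference than miR-132. Relative to the sample median it was -0.25 with a 95% interval of -0.91 to 0.40, and relative to U6 and the small nucleolar RNAs -0.36 with an interval of -1.80 to 1.08. On these scales too it was lower in 3 of 3 pairs, by 0.07 to 0.54 log2 units relative to the median and by 0.24 to 0.48 relative to the structural RNAs. The share of all miRNAs lower in all 3 pairs was not computed on these scales. On the Ct scale the 3 treated samples all crossed after the 3 untreated ones, as 11.0% of the miRNAs tested did, and the pair differences ran from -1.56 in replicate 2 to -0.10 in replicate 3.

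**Figure D3:**
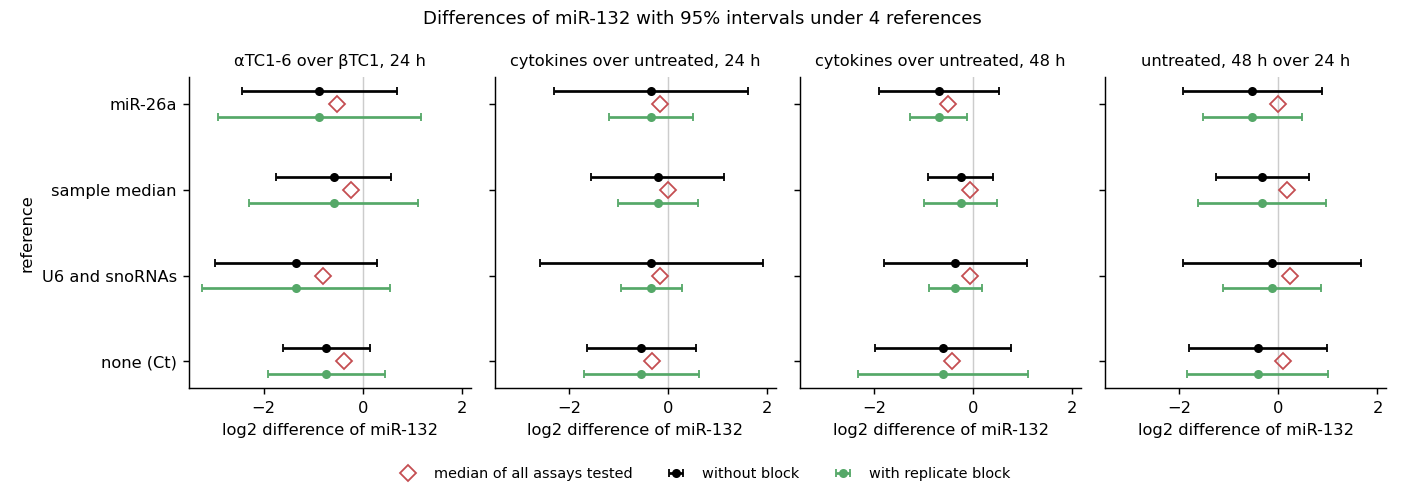
Log2 difference of miR-132 (x axis) in 4 comparisons, 1 per panel, under 4 references (rows), fitted without (black) and with (green) the replicate number as a block, with 95% intervals, and red diamonds for the median of all miRNAs tested without the block. All points lie below 0 and, among those shown, only the blocked 48 h cytokine interval relative to miR-26a, -1.27 to -0.12, leaves out 0.

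Time in culture was compared in untreated αTC1-6. At 48 h miR-132 was 0.53 log2 units lower than at 24 h, with a standard error of 0.556, a 95% interval of -1.92 to 0.87 and an adjusted p of 0.914 (limma). Of 489 miRNAs 29 passed, or 5.93%. This count was 2 with undetermined wells as missing, 1 when a Ct was required throughout, and 0 without any one of replicates 1, 2 and 3 of the 48 h samples. The median of all was -0.01, and 18.8% of the miRNAs had a lower difference than miR-132. The exact permutation p was 0.4. More card A miRNAs had a Ct at 48 h, 304 to 324 per untreated sample against 236 to 258 at 24 h, and the batches of the 24 h and 48 h samples are not given in the sources used here. Its part in the level of miR-132 was not tested. Relative to U6 and the small nucleolar RNAs the difference was -0.13.

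The cytokine effect at 48 h was 0.35 log2 units below that at 24 h, with a 95% interval of -2.44 to 1.74 and an adjusted p of 0.992 (limma). Of 477 miRNAs tested 1 passed, or 0.210%. A difference between the time points in the response of miR-132 was not detectable with 3 samples per group. The comparison of the lines, that of cytokines at 24 h and that of time share the untreated 24 h αTC1-6 samples. Those of time and of cytokines at 48 h share the untreated 48 h samples, with opposite sign. The values of these comparisons are therefore not independent.

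**Figure D4:**
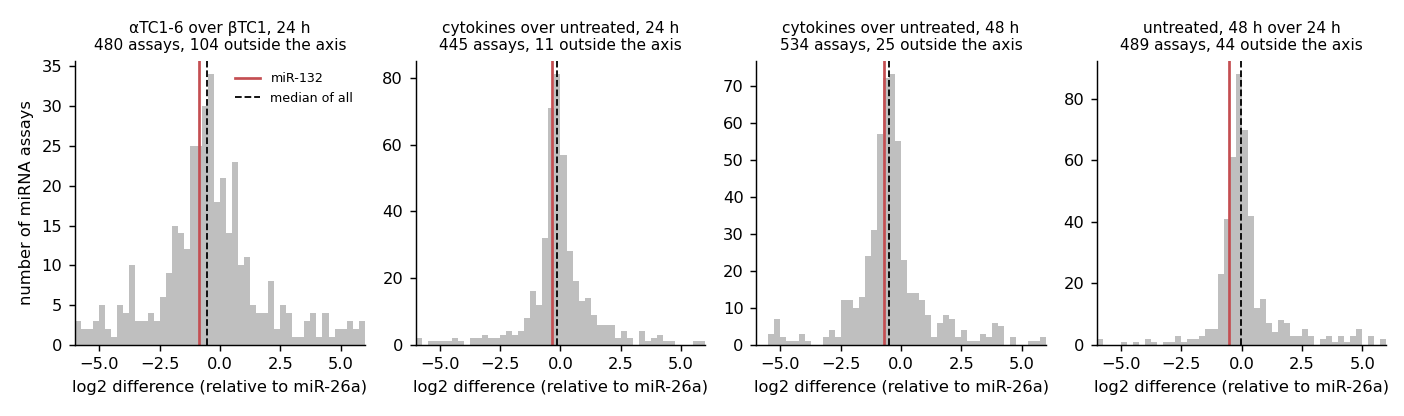
Number of miRNA assays (y axis) by log2 difference relative to miR-26a (x axis, cropped at 6 units either way) in 4 comparisons, with miR-132 as a red line and the median of all assays as a dashed line. MiR-132 lies below the median in each panel, with 40.8, 33.3, 39.5 and 18.8% of the assays below it from left to right.

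Other miRNAs linked to CREB or neuronal activity were taken as a list of 11 assays, without miR-132. Between the lines, 4 of 10 tested passed as higher in αTC1-6 and 0 as lower, where 11.9% of all miRNAs passed as higher and 17.7% as lower. The 4 were miR-134, a dendritic miRNA of the Dlk1-Dio3 locus, by 4.46 log2 units, and members of the miR-29 family. These members were miR-29a, miR-29b and miR-29c, by 2.29, 2.10 and 1.60. The median of the list was 0.77 against -0.52 over all. Of the 10, 5 were below 0, as miR-132 was at -0.88, where 61.9% of all miRNAs were. After cytokines 0 of 10 passed at 24 h and 0 of 11 at 48 h in the limma fit. Of these, 0 and 1 had an unadjusted p under 0.05, where 4.49% of all miRNAs did at 24 h and 11.2% at 48 h. The median at 48 h was -0.48, near that of all miRNAs at -0.51. Between 24 and 48 h in untreated cells 1 of 11 passed, miR-219-2-3p, where 5.93% of all miRNAs did. It had a Ct in 3 of the 6 samples, all of 48 h. Its wells of 24 h were undetermined, so its difference rests on the Ct that such wells were given. That pass therefore does not measure a change in level.

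Among 9 miRNAs known to respond to Toll-like receptors or cytokines, 8 were tested at 48 h and 1 passed, miR-146a, a target of NF-kB, at 3.82 log2 units above untreated cells (adjusted p 0.00458, limma). Of all miRNAs 0.562% passed. At this time 3 of the 8 had an unadjusted p under 0.05 (limma), against 11.2% of all miRNAs. The median of the list was 1.05 and 2 of 8 were below 0, where 74.7% of all miRNAs were. At 24 h 0 of 8 passed in the limma fit and 3 had an unadjusted p under 0.05, against 4.49% of all miRNAs, with miR-146a at 3.30 and an adjusted p of 0.0985 (limma). MiR-132, at -0.34 and -0.69, was below 0 at both times, as were 58.9% of all miRNAs at 24 h and 74.7% at 48 h. Of the 10 islet miRNAs that change in models of diabetes, 1 passed as lower in αTC1-6 than in βTC1, miR-203 at -3.71. Of all miRNAs 17.7% passed as lower. In that comparison 8 of the 10 were below 0, where 61.9% of all miRNAs were, and the medians were -0.96 and -0.52. MiR-146a was the 1 of the 10 that passed after 48 h of cytokines. The 3 lists share miRNAs and were chosen with earlier results of these data known, so their counts are descriptions and not tests.

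The 5 miRNAs whose negative ΔCt was most like that of miR-132 were found among 277 with a Ct in all 15 samples. They were miR-148a with a Pearson r of 0.969, miR-93 with 0.894, miR-375 with 0.891, miR-720 with 0.883 and miR-361 with 0.882. The points share the Ct of miR-26a of their sample, and the median r over the 277 was 0.537. Relative to the sample median, which removes it, the median r was 0.02. There miR-148a kept its first place with an r of 0.924, miR-375 was also among the first 5 with 0.722, and the other 3 left the first 5, with an r between 0.449 and 0.681. Over the 12 αTC1-6 samples alone the r of miR-148a relative to the median was 0.862 and that of miR-375 was 0.661.

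MiR-148a had a mean ΔCt of 5.70 ± 0.753 in βTC1 and 6.93 ± 0.938 and 7.33 ± 1.08 in untreated and treated αTC1-6 at 24 h (SD, n = 3). At 48 h the mean was 7.62 ± 0.635 and 7.91 ± 0.410 (SD, n = 3). Relative to miR-26a, the reference that both share, these means follow the order of those of miR-132, for which miR-148a was chosen. Relative to the sample median, treated αTC1-6 at 48 h came before the untreated cells of 48 h for miR-148a, at -0.17 and -0.02 cycles, and last for miR-132. MiR-375, the most characteristic miRNA of islet endocrine cells, had a mean ΔCt of -4.24 ± 0.173 in βTC1, -3.17 ± 0.756 and -2.61 ± 1.09 at 24 h and -3.22 ± 0.728 and -2.21 ± 0.491 at 48 h in untreated and treated αTC1-6 (SD, n = 3). On this scale it was highest in βTC1 and lowest in treated αTC1-6 at 48 h, and relative to the sample median it was lowest in treated αTC1-6 at 24 h, at -10.19 cycles against -10.29 at 48 h.

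**Figure D5:**
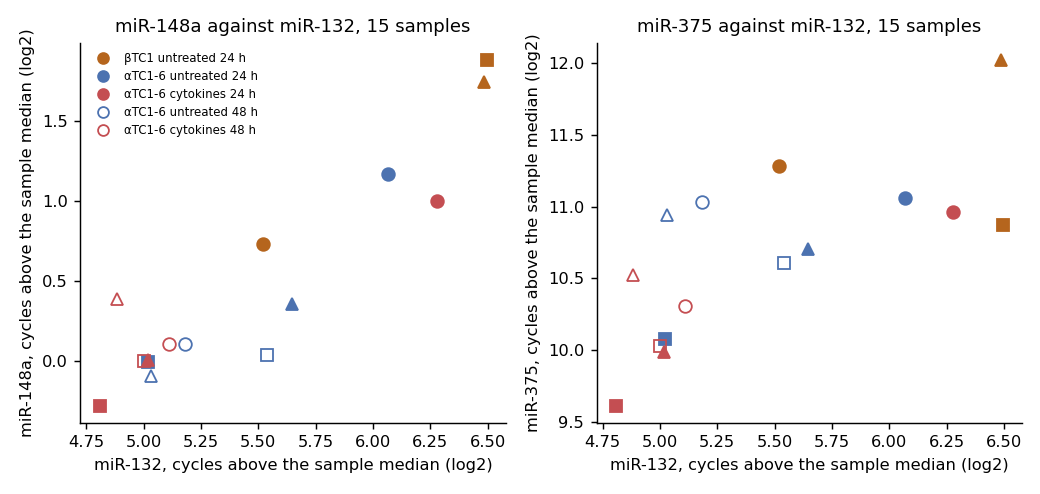
MiR-148a (left) and miR-375 (right) against miR-132 in 15 samples, each in cycles above the sample median (log2 scale), coloured by group, with open symbols for 48 h and circles, squares and triangles for replicates 1, 2 and 3. The points of miR-148a follow those of miR-132 with r = 0.924, and those of miR-375 more loosely with r = 0.722.

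Markers of islet endocrine cells, 11 assays, and of other cell types were described by whether they had a Ct. In βTC1 and in the 24 h αTC1-6 groups 6 of the 11 had a Ct in all 3 samples, and in the 48 h groups 10 of 11 did. In both 24 h αTC1-6 groups 3 of the 11 were undetermined in all 3 samples. MiR-375 was at a Ct of 13.42 to 15.98 in every sample. All 7 assays of neuronal and glial miRNAs also had a Ct in every sample, and the liver miRNA miR-122 had one in all 3 samples of the 48 h groups alone. Of 5 blood assays, 4 had a Ct in all 3 samples of βTC1 and 3 in each αTC1-6 group. Of 6 vessel and mesenchyme assays, 4 did in each 24 h group and 5 in each 48 h group. Of 6 muscle assays, 2 did in βTC1, 1 in each 24 h αTC1-6 group and 4 in each 48 h group. Detection alone thus did not set the islet markers apart from the others. The part of these in the level of miR-132 was not tested.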

How the data were processed

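RNA of 15 samples was reverse transcribed, preamplified and run on a pair of TaqMan array cards for rodents (A and B). The authors deposited Ct values, and log2 values (ΔCt), the difference of each Ct from that of miR-26a alone, although the methods name multiple reference genes. A table of fold changes, the authors' own comparisons, was not used. The Ct of miR-132 was the same within 0.01 cycle in both tables in all 15 samples. Duplicate wells were averaged, undetermined wells were set to a Ct of 40, and undetermined wells of control RNAs were left out of the reference.

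Samples were grouped by line, treatment and time from the labels. R 4.3.3 with limma 3.58.1 fitted the negative ΔCt over the samples compared, for miRNAs with a Ct under 40 in at least 0.5 of them, with eBayes, two-sided tests and Benjamini-Hochberg adjustment within card at 0.05. The fit was tested on simulated data. Exact permutation tests over 20 splits used Python 3.11.15 with scipy 1.17.1. Other references were the median of miRNAs with a Ct in all 15 samples, the mean of the control RNAs of the same card (4 on card A), and none. In the cytokine comparisons same-numbered samples deviated together over 278 assays (r from 0.276 to 0.476 at 24 h and from 0.259 to 0.443 at 48 h). Treated and matched untreated samples were therefore taken as pairs in an alternative fit.

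Named miRNAs were miR-132, the references, the 5 assays most like miR-132 over 15 samples, and those of 3 lists. MiR-132 and the lists were chosen with earlier results of these data known. The number of arrays limits the precision. P-values measure the spread between the biological replicates of a line.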

Additional observations from a re-analysis of the deposited data

How the results depend on the processing

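No comparison of miR-132 passed the threshold of 0.05 under any alternative run, with adjusted p (limma) of 0.105 or more over all of them. The direction was kept except in 3 fits without 1 sample. The cytokine difference at 24 h became 0.05 without replicate 3 of the treated cells and 0.11 without replicate 1 of the untreated cells. The difference between the cytokine effects became 0.35 without replicate 1 of the treated cells of 24 h. Leaving out each sample in turn gave -1.33 to -0.49 between the lines, -1.04 to 0.11 and -1.004 to -0.41 for cytokines at 24 h and 48 h, -0.81 to -0.07 for time and -0.80 to 0.35 for the difference between the cytokine effects. The other alternatives gave -1.40 to -0.59, -0.54 to -0.21, -0.69 to -0.25, -0.53 to -0.13 and -0.35 to -0.03 in the same order. The value of -1.40 came from setting the 48 h untreated αTC1-6 samples against βTC1.

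With the replicate block the log2 differences were -0.88, -0.34, -0.69, -0.53 and -0.35 in the same order, and no call of miR-132 changed. The block moved the count of miRNAs that passed from 142 to 115 between the lines and from 1 to 0 and from 3 to 0 for cytokines at 24 h and 48 h, where 47 and 121 had an unadjusted p under 0.05 with the block. The replicate numbers did not pair the samples between the lines (r from 0.06 to 0.09) or between the time points (r from -0.04 to 0.24). Joining a reference with the block was chosen after seeing the data. The standard errors of 0.471 to 0.931 log2 units with 3 samples per group limit what could be detected. The counts of miRNAs that passed rest partly on undetermined wells. With a Ct required in every sample 81 passed between the lines in place of 142, 0 and 2 for cytokines at 24 h and 48 h, and 1 in place of 29 for time. With undetermined wells as missing the 4 counts were 95, 0, 1 and 2. The count for time was also 3 with all 15 samples in 1 fit and 2 with the Ct of the non-normalized table. Leaving out each sample in turn gave 94 to 110, 0 to 2, 0 to 5 and 0 to 30, and the count for cytokines at 48 h was 0 without replicate 2 or without replicate 3 of the treated cells. The count for the difference between the cytokine effects, 1, was 0 to 4 over all alternatives.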
